A study of Mus musculus with 9 samples.

Results

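The protein-coding genes of mouse chromosome 11 were examined for how far each one followed the lower level that this chromosome as a whole had in 3 of 9 embryonic stem cell clones, clones 14, 17 and 8. A gene entered when GENCODE (GRCm38) placed it on chromosome 11 as protein-coding and its mean over the 9 libraries was 1 CPM (counts scaled to library size) or more. Genes of several large families (ribosomal proteins, proteasome, respiratory chain and ATP synthase, solute carriers, collagens, integrins, cadherins) and 20 further named genes were then left out by symbol. Of 1638 such genes with transcripts in the files, 588 were under 1 CPM, 1050 passed, 74 of these were left out by symbol and 976 remained. The 3 clones were singled out with their chromosome 11 levels known, so the fall itself is described here and not tested.

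The clones came from bulk E14, a line of mouse embryonic stem cells, and were picked because their lipid droplets differed in size. All 9 were grown up on gelatin in 1 common medium, with foetal bovine serum and leukaemia inhibitory factor, before RNA was taken. The labels give only a clone number: no droplet size, genotype or group, and no second library of any clone. Each value below is therefore 1 library of 1 clone, there are no replicates, no p-value is given, and intervals cover counting error only. Gene counts summed to 10783718 to 14309662 per library (median 13802506). All 10 stem cell markers that were checked, Pou5f1, Sox2 and Nanog among them, were at 1 CPM or more in every clone, and the 10 summed to 3858 to 6001 CPM. Markers of other cell types summed to 7.49 to 26.4 CPM (7 fibroblast markers), 3.91 to 8.4 CPM (5 of primitive endoderm), 4.36 to 16.0 CPM (4 of trophoblast) and 130 to 252 CPM (5 neural markers). The neural, fibroblast and stem cell sums set clones 10 and 11 apart, as given with the genes of those clones below. In bulk RNA, fewer cells that express a gene and less RNA per cell cannot be told apart.

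In a diploid cell the amount of RNA from a chromosome follows, for many genes, the number of copies of that chromosome, since each copy is transcribed on its own. Some genes depart from this because a feedback, a limiting factor or the chromatin state of the gene sets their level instead. Cultured mouse embryonic stem cells are known to gain whole chromosomes, chromosomes 8 and 11 among them. Chromosome number was not measured in these files, and its part in the levels below was not tested.

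Promoters of genes that followed the fall, exceeded it or escaped it are shown first, to set the sequence at the start of a gene that kept to the fall beside those of genes at the ends of the range. The sequences are from RefSeq (GRCm38.p6), each 300 bases from 250 before to 50 after an annotated start, written 5′ to 3′ on the gene's strand, with CG dinucleotides in capitals. Rack1, a ribosomal scaffold protein that followed the fall, has 15 CG (chr11:48800110-48800409, plus strand). Myh3, the embryonic skeletal myosin heavy chain, lay far below the fall and has 4 CG (chr11:67078050-67078349, plus strand). Adcy1, an adenylate cyclase that makes cyclic AMP, was highest where the chromosome was lowest and has 37 CG (chr11:7063183-7063482, plus strand).
Rack1: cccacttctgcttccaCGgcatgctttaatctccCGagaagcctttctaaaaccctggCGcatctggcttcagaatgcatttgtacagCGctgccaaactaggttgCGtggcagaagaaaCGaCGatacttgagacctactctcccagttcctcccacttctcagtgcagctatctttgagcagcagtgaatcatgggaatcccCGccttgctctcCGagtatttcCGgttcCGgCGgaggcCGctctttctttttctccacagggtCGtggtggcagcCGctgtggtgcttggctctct
Myh3: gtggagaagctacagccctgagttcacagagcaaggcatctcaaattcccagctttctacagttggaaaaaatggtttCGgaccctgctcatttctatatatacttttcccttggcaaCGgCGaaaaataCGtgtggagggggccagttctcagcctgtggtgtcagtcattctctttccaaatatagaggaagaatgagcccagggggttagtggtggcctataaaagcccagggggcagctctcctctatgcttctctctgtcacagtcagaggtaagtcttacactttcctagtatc
Adcy1: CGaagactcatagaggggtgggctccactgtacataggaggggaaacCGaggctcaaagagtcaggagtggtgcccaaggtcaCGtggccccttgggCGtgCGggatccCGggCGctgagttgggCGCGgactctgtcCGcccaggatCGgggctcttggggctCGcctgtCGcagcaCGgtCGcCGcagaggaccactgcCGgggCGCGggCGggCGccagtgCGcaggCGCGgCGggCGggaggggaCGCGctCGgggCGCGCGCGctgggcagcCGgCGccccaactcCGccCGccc
Only 79.8% of the 976 genes (779) had a promoter in the RefSeq table, so a comparison of CG content between groups of genes is void and none is made. The 3 genes are examples, and no order is read from their CG counts.

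A further promoter belongs to Irgm1, an immunity-related GTPase and one of the interferon-response genes, which recur below among the genes that lay farthest under the fall. Here the capitals mark matches to GAAANNGAA, from the core of the interferon-stimulated response element, searched on both strands. The stretch is chr11:48871371-48871670 (minus strand) and holds 2 overlapping matches.
Irgm1: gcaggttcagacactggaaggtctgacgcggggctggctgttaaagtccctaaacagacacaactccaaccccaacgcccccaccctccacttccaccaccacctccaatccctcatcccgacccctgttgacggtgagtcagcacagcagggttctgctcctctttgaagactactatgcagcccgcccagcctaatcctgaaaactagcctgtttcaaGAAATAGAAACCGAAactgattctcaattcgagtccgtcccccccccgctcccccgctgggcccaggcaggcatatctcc
A response element match occurs in 8.56% of all 32851 RefSeq promoters of this length. It occurs in 6.8% of the promoters of the chromosome 11 genes examined and in 6.27% of those on other chromosomes chosen by the same rule. Among 11 chromosome 11 genes of a fixed interferon and chemokine list that had a promoter, 6 held a match. Of these 6, Irgm1 and Tgtp1 were far under the fall and Trim25, Lgals9, Slfn5 and Slfn9 were not, while Irf1 and Ifi35, also far under it, held none. The RefSeq start used lay 1926 bases from the GENCODE start of the gene for Tgtp1, 753 for Slfn5 and 263 for Irgm1. A match describes letters only and does not show that a factor bound there.

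The median chromosome 11 gene was lower in clones 14, 17 and 8 than in each of the other clones. Each gene's deviation was taken as its log2 CPM minus its own median over the 9 clones. The median deviation over the 976 genes was −0.36 in clone 14, −0.39 in clone 17 and −0.40 in clone 8. It was 0.11 in clone 1, 0.12 in clone 4, 0.04 in clone 6, 0.09 in clone 13, 0.02 in clone 10 and 0.04 in clone 11. This median per clone is called the step below. A gene's median over 9 clones lies among the lower of the other 6 levels when 3 are low, so these deviations understate the distance between clones. Set directly against one another, 1 of clones 14, 17 and 8 and 1 of the other 6 clones differed by −0.56 to −0.45 log2 units over 18 pairs, a median ratio of 0.68 to 0.733. The 15 pairs among the other 6 clones differed by −0.04 to 0.09, and the 3 pairs among clones 14, 17 and 8 by 0.00 to 0.03. These pairs share clones and are not independent of one another.

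**Figure D1:**
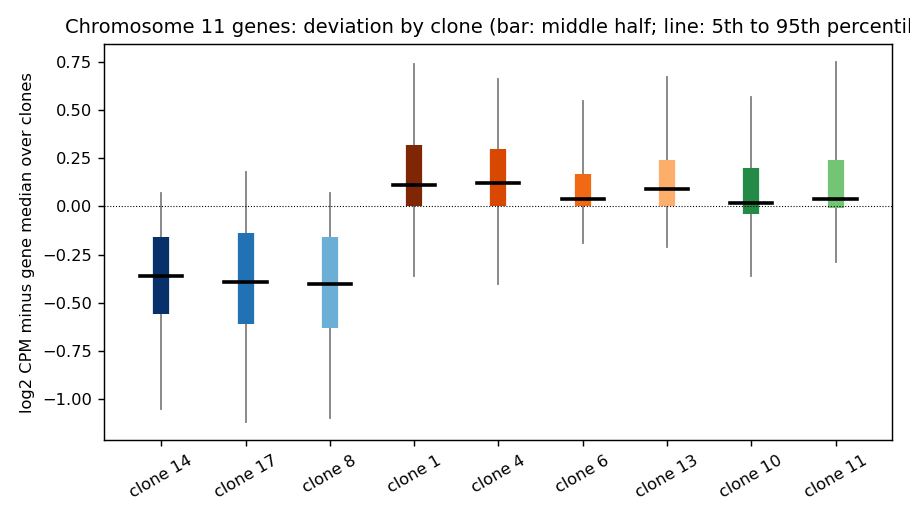
Deviation of the 976 chromosome 11 genes by clone, in log2 units from each gene's median over 9 clones: black lines are medians, coloured bars span the 25th to 75th percentile and thin lines the 5th to 95th. The medians of clones 14, 17 and 8 lie between −0.40 and −0.36, under those of the other clones at 0.02 to 0.12.

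The genes together gave 7.98% of all gene counts in clone 14, 7.86% in clone 17 and 7.74% in clone 8, against 9.99% to 11.3% in the other 6 clones. Summed levels were 80581, 78783 and 78237 CPM in those 3 clones and 104228 to 111433 CPM in the others. Most genes lay at −0.2 or lower in each of the 3 clones: 686 of 976 (70.3%) in clone 14, 687 (70.4%) in clone 17 and 702 (71.9%) in clone 8. Over all 12822 protein-coding genes the same was true of 23.0%, 24.4% and 26.7%. For 600 of the 976 genes (61.5%) each of the 3 clones was below every other clone, which held for 14.5% of all protein-coding genes and for 10.2% of genes on other chromosomes chosen by the same rule. The lower level was thus spread over most of the chromosome's genes rather than carried by a few abundant ones.

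Most other chromosomes stayed level across the 9 clones. Medians of chromosomes other than 11, 8 and 6 lay between −0.03 and 0.08 in every clone. Chromosome 6 (579 genes) stood at 0.15 in clone 1 and 0.10 in clone 13, as large as the chromosome 11 medians of those clones, and between −0.02 and 0.05 in the other 7. Chromosome 8 (666 genes by the same rule) moved the other way in the same 3 clones, at 0.31, 0.31 and 0.28, and also in clone 10 at 0.27, with −0.21 to 0.00 in the rest. Chromosome 11 in clone 10 stood at 0.02, so the 2 chromosomes were paired in opposite directions in clones 14, 17 and 8 but not in clone 10.

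The lower level ran along nearly the whole length of the chromosome. Of 12 windows of 10 Mb with at least 20 genes, 11 (91.7%) had a median of −0.2 or lower in each of clones 14, 17 and 8. The exception was the window from 20 to 30 Mb, with 41 genes at −0.26, −0.26 and −0.14, where clone 8 fell short of that mark. The gene-poor window from 10 to 20 Mb held 12 genes at −0.09, −0.29 and −0.23. From 30 Mb to the end of the chromosome, window medians lay between −0.49 and −0.30 in the 3 clones. With 5 Mb windows 18 of 19 reached −0.2 in all 3 clones, and with 20 Mb windows 7 of 7 did.

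**Figure D2:**
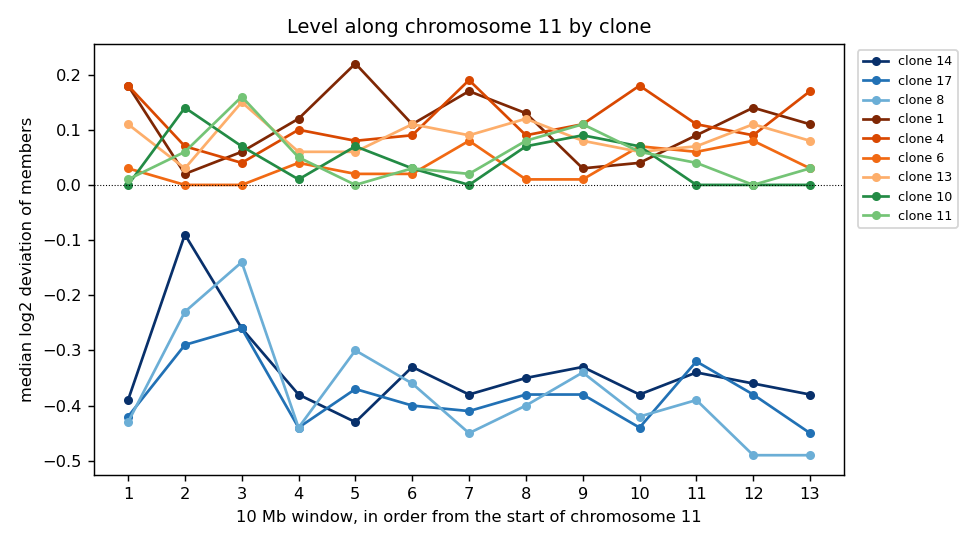
Median deviation in log2 units of chromosome 11 genes in each 10 Mb window (horizontal axis, window 1 at the start of the chromosome), 1 line per clone. The lines of clones 14, 17 and 8 lie under all others in every window, and come closest to them in windows 2 and 3, which hold 12 and 41 genes.

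One thinly filled window had lower medians than the rest. Between 110 and 115 Mb, a window of 15 genes and so thinly filled, medians were −0.84, −0.82 and −0.67 in clones 14, 17 and 8. Its genes ranged widely: Map2k6, a kinase that activates p38, stood at −0.07, 0.00 and 0.13, while Sstr2, Sdk2, Ttyh2 and Gprc5c each lay more than 1 log2 unit under their medians in all 3 clones. Ttyh2, a tweety-family membrane protein, measured 13, 11.5 and 11.7 CPM in clones 14, 17 and 8, versus 25.9 to 51.5 CPM elsewhere. Clone 10 was also low there, with a window median of −0.22. Sstr2, Sdk2 and Kif19a were under 1 CPM in each of clones 14, 17 and 8. They passed the level filter only through the other clones. Genes let in that way lower the window median, so no trait of this stretch is read from it.

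Genes were then sorted by their distance from the step in clones 14, 17 and 8, with a tolerance of 0.3 log2 units. A gene within 0.3 of the step in all 3 clones followed it, one at least 0.3 over it in all 3 was above, one at least 0.3 under it in all 3 was below, and the rest were mixed. By this rule 398 genes (40.8%) followed the step, 64 (6.56%) were above, 81 (8.3%) were below and 433 (44.4%) were mixed. Genes of other chromosomes set around their own chromosome's median gave 52.7%, 4.51%, 6.08% and 36.7%. The 25th to 75th percentile of deviations spanned 0.40, 0.47 and 0.46 in clones 14, 17 and 8. For genes of autosomes other than 6, 8 and 11 it spanned 0.28, 0.31 and 0.35. On level chromosomes any of these clones can itself be the gene's median, which narrows the span, and on chromosome 11 this is rarer. The spans and class shares are thus not like measures, and no wider scatter of chromosome 11 genes is read from them. With the mean over clones as reference the chromosome 11 spans were 0.31, 0.36 and 0.37. A gene with the same level in all 9 clones lies only 0.36 to 0.40 over the step, close to the tolerance, so such genes can fall among the mixed, and the count of genes above need not hold them all. On simulated counts most genes made without the step were not placed above it, and many made with it, most of those under 5 CPM included, were not placed among those that follow it, so neither count is the number of genes with or without the step.

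The sorting has soft edges. Hnrnph1, a splicing regulator, was just inside the above class at 0.43, 0.39 and 0.30 over the step, and Ubald2 just outside at 0.30, 0.39 and 0.40. P4hb was just inside the below class at −0.30, −0.37 and −0.44 from the step, and Guk1, guanylate kinase, just outside at −0.29, −0.37 and −0.39. Nacad and Vstm2a, at mean levels of 1.000 and 0.999 CPM, were the nearest genes to fail the level filter.

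The genes that followed the step include abundant housekeeping genes. From here on, 3 values given together are those of clones 14, 17 and 8 in that order, and a range set against them runs from the lowest to the highest of the other 6 clones. Npm1, the nucleolar chaperone nucleophosmin (chr11:33152287-33163206, minus strand), measured 3324, 3332 and 3449 CPM in clones 14, 17 and 8. Its levels were 4601, 4426, 4105, 4282, 4637 and 4443 CPM in clones 1, 4, 6, 13, 10 and 11. The 2 sets of values do not overlap, and clone 10 was 1.39-fold over clone 14 (95% exact interval 1.38 to 1.41). Every fold given here sets the highest clone of a gene against its lowest, so it is larger than the usual distance between clones. Rack1 (chr11:48800332-48806434, plus strand), whose promoter is printed above and which overlaps Trim41 on the opposite strand, was at 2257, 2235 and 2358 CPM, then at 3356, 3826, 2764, 2902, 2894 and 2553 CPM in the same order. Eif4a1, the RNA helicase of translation initiation, was at 2138, 2147 and 1917 CPM against 2466 to 2903 CPM. Kpnb1, the nuclear import receptor importin beta, was at 1387, 1317 and 1430 CPM against 1785 to 2138 CPM. Ppia (cyclophilin A), Canx (the chaperone calnexin), Hspa4 (an Hsp110-family chaperone) and G3bp1 (a stress granule protein) also had no overlap between clones 14, 17 and 8 and the rest.

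Genes for making ribosomes and proteins followed the step more often than those of any other list used here. The functional lists used here were drawn up with earlier results of these data known, so their counts are descriptions. They are set beside the 40.8%, 6.56% and 8.3% of all 976 genes that followed the step, were above or were below. Counts of genes lowest in clones 14, 17 and 8 are set beside the 61.5% of all 976 genes. Genes that followed the step had a higher median level (64.4 CPM) than the mixed genes (17.6 CPM), and the lists were not matched for level. The part of level in the count of any list was not tested, so no count is read as a trait of function. Of 19 ribosome biogenesis genes, 17 followed the step and 2 were mixed, with list medians of −0.39 in each of the 3 clones. Ftsj3, an rRNA processing factor, was at 445, 425 and 426 CPM against 601 to 806 CPM. Of 19 translation factors and mitochondrial ribosomal genes, 16 followed the step, and Msi2, the RNA-binding protein Musashi-2, was above. The 11 mitochondrial ribosomal protein genes as a family were lowest in clones 14, 17 and 8 in 10 cases.

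Cell division genes were likewise low as a group without large departures. Of 24 mitosis and cell cycle genes, 14 followed the step, 10 were mixed and none was above or below. In clones 14, 17 and 8 19 were lowest (79.2%, beside 61.5% of all 976 genes). Aurkb, the Aurora B kinase of the chromosomal passenger complex, measured 80.2, 77.1 and 73.1 CPM in those clones, versus 92.9 to 120 CPM in the others. Its partner Birc5 (survivin) was at 139, 132 and 127 CPM against 162 to 203 CPM. Top2a, the DNA topoisomerase that untangles chromosomes before division, was mixed: clones 14 and 17 were at 946 and 919 CPM while clone 8 was at 1197 CPM, close to the 1235 to 1449 CPM of the rest. Of 18 DNA repair and replication genes, 14 were lowest in the 3 clones and 7 followed the step.

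Among protein-handling genes 24 of 30 (80.0%) were lowest in clones 14, 17 and 8, beside 61.5% of all 976 genes. P4hb, the protein disulfide isomerase that forms disulfide bonds in the endoplasmic reticulum, was at 662, 620 and 584 CPM against 1047 to 1128 CPM. Its 6 other clones lay within 0.11 log2 units of one another, so the distance to clones 14, 17 and 8 was several times that range. Derl2, a channel component for removing misfolded proteins from the same compartment, was below too, at 19, 23.1 and 23.2 CPM against 37.8 to 44.9 CPM, but overlaps Mis12 on the opposite strand and is uncertain. In vesicle trafficking 17 of 31 genes followed the step and 4 were below, among them Sar1b, the GTPase that starts COPII coats, at 23.1, 21.6 and 24.3 CPM against 35.3 to 50.1 CPM.

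**Figure D3:**
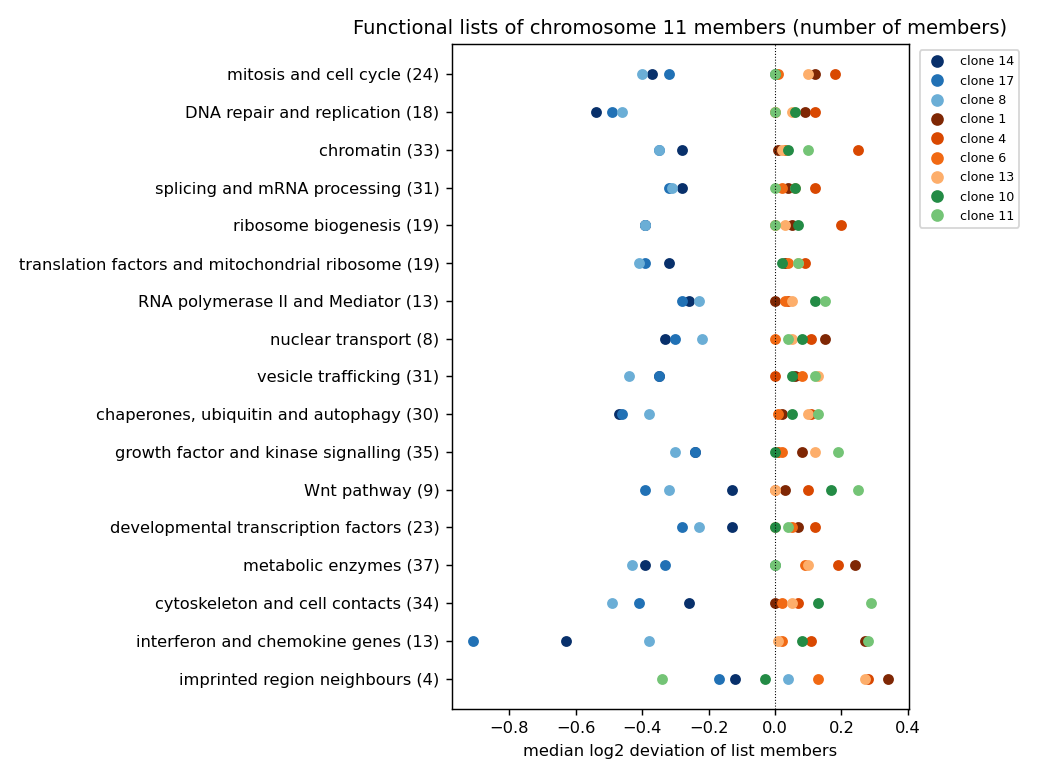
Median deviation in log2 units of the chromosome 11 genes of each functional list (number of genes in parentheses), 1 point per clone. Clones 14, 17 and 8 lie lowest in 16 of the 17 lists. Clones 14 and 17 have their lowest points in the interferon and chemokine list at −0.63 and −0.91, while clone 8 is at −0.38 there and has its lowest in the cytoskeleton list at −0.49.

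The genes farthest below the step were mostly genes of low level outside housekeeping, several of which passed the level filter only through the other clones. Fat2, a giant protocadherin of epithelial cells (chr11:55250609-55336564, minus strand), measured 0.437, 0.431 and 0.0714 CPM in clones 14, 17 and 8. Its levels were 13, 9.68, 14.4, 14.8, 2.97 and 6.15 CPM in clones 1, 4, 6, 13, 10 and 11. Clone 8 had 1 count and clone 13 had 196, a ratio of 207 with an exact interval from 36.8 to 8233, so the size is poorly fixed but the 2 sets do not overlap. Myh3 (chr11:67078300-67102291, plus strand) was at 1.18, 1.08 and 0.646 CPM, then at 7.76, 10.9, 10.9, 9.35, 11 and 10.5 CPM. Its 6 higher clones spanned 0.50 log2 units while its deviations in clones 14, 17 and 8 were −2.84, −2.95 and −3.58.

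Hormad2, a protein of meiotic chromosome axes, was at 0.365, 0.287 and 0.785 CPM against 2.52 to 7.93 CPM. Sstr2, a somatostatin receptor, was at 0.437, 0.503 and 0.286 CPM against 1.38 to 8.54 CPM, and Sdk2, a synaptic adhesion protein, at 0.502, 0.740 and 0.648 CPM against 2.24 to 4.45 CPM. These low genes are near the level of 3 counts, which is 0.209 to 0.293 CPM. Fat2, Hormad2, Dock2, Tgtp1, Sstr2 and Sdk2 were among those under 1 CPM in each of clones 14, 17 and 8. They passed the level filter through the other clones, so nothing is read from how many such genes lay below. Gprc5c, an orphan receptor, measured 4.96, 2.66 and 3.51 CPM in clones 14, 17 and 8, versus 33.1 and 47.7 CPM in clones 10 and 11 and 12.9 to 15.2 CPM in the remaining clones. Zfp39, a zinc finger protein, was at 4.15, 3.82 and 4.09 CPM against 10.1 to 15.7 CPM. Dock2 overlaps Fam196b and Sstr2 overlaps Slc39a11 on the opposite strand, and since no source used here gives the strand setting of the counting, their values are uncertain.

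Interferon-response genes formed the list with the lowest medians in clones 14 and 17, and its genes differed widely among themselves. Of 26 listed genes on chromosome 11, 13 passed the level filter, of which 4 were below the step, 1 followed it, 1 was above and 7 were mixed. Tgtp1, counted among those below, passed the filter only through the other clones. Nothing is read from its place there, and the list medians include it. Irf1, the interferon regulatory factor that switches on other response genes (chr11:53770014-53778374, plus strand), measured 22.2, 15.9 and 18.7 CPM in clones 14, 17 and 8. Its levels were 79.3, 71.8, 66.8, 65.8, 63.3 and 81.6 CPM in clones 1, 4, 6, 13, 10 and 11. Clone 11 was 5.14-fold over clone 17 (95% exact interval 4.44 to 5.96), and the 2 sets of clones do not overlap. Irgm1 (chr11:48861968-48871683, minus strand), was at 3.95, 2.68 and 5.03 CPM, then at 26.5, 20.7, 23.2, 20.9, 19.8 and 26.2 CPM. Ifi35 was at 2.11, 1.8 and 3.71 CPM against 7.75 to 18.1 CPM. The promoter of Irgm1 is printed above. Irf1 overlaps an antisense gene, Gm17334, whose reads may not have been told apart from its own.

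Tgtp1, a T-cell-specific GTPase, was also below, at 0.505, 0.0719 and 0.228 CPM against 2.06 to 3.74 CPM. It passed the level filter only through the other clones. It also has a near-identical neighbour, and its values are uncertain. Other genes of the list lay closer to the rest or among them. Rnf213, a large ubiquitin ligase, was at 52.8, 39.8 and 65.1 CPM against 80.3 to 116 CPM. Trim25, a ubiquitin ligase of antiviral signalling, was at 191, 187 and 159 CPM, inside the 124 to 212 CPM of the other clones. Slfn3, of the Schlafen family whose members are hard to tell apart by reads, lay between 1.51 and 2.11 CPM in every clone.

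Rad50, the ATPase of the MRN complex that holds broken DNA ends, was the only DNA repair gene of the list to lie below the step. It was at 62.9, 40.3 and 55.5 CPM in clones 14, 17 and 8 (chr11:53649519-53707319, minus strand). It was at 131, 170, 145, 144, 147 and 127 CPM in clones 1, 4, 6, 13, 10 and 11, with no overlap. Clone 4 was 4.23-fold over clone 17 (95% exact interval 3.85 to 4.64). Upp1, uridine phosphorylase, was at 108, 115 and 126 CPM against 166 to 381 CPM, and Aldoc, an aldolase, at 10.1, 9.63 and 11.7 CPM against 16.7 to 33.1 CPM. Of 37 metabolic enzymes these 2 were the ones below.

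A small share of genes ran against the chromosome, as the low chromosome medians of clones 14, 17 and 8 already imply. At or over their own median in all 3 were 31 of 976 (3.18%), a share not computed for other chromosomes. Higher in each of the 3 than in every other clone were 10 (1.02%), against 14.3% of genes on other chromosomes chosen by the same rule. These 10 were Adcy1, Fancl, Fam196b, Ebf1, 9930111J21Rik2, Olfr1388, Olfr1385, Olfr318, Ngfr and Pitpnc1. Fam196b, 9930111J21Rik2, Fancl and Pitpnc1 overlap other genes on the opposite strand and are uncertain. Adcy1 (chr11:7063489-7178506, plus strand) measured 59.4, 53.2 and 52.5 CPM in clones 14, 17 and 8. Its levels were 20.3, 23.2, 27.1, 20.5, 27.9 and 26.1 CPM in clones 1, 4, 6, 13, 10 and 11. Clone 14 was 2.93-fold over clone 1 (95% exact interval 2.51 to 3.43).

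Ebf1, a transcription factor of B cell and fat cell development, was at 9.29, 12.6 and 14.1 CPM against 2.47 to 6.29 CPM. Ngfr, the low-affinity nerve growth factor receptor, was at 72.4, 83.8 and 63.6 CPM against 50.5 to 58.2 CPM, a narrower gap. Pitpnc1, a phosphatidylinositol transfer protein, was at 64.8, 70.9 and 76.8 CPM against 48.1 to 54.6 CPM. Fancl, the ubiquitin ligase of the Fanconi anaemia pathway, was at 48.5, 46.4 and 49.6 CPM against 31.7 to 43.8 CPM. For these 4 genes no value of clones 14, 17 and 8 fell inside the range of the others. Ntn1, the guidance protein netrin-1, was above the step but did overlap: clone 14 at 154 CPM lay under clone 4 at 170 CPM.

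All 3 olfactory receptor genes that passed the level filter were above the step. Olfr1385 measured 30.7, 29.3 and 39.9 CPM in clones 14, 17 and 8, versus 5.54 to 10.3 CPM in the others, and Olfr1388 measured 237, 287 and 267 CPM against 158 to 198 CPM. These belong to a large family of similar genes, and division of reads among its copies makes them uncertain. The short stretch from 48.8 to 49.9 Mb held genes of every class side by side. Rack1 and Trim41 there followed the step, Irgm1 and Tgtp1 were below, Olfr1388 and Olfr1385 were above and Mapk9, a stress-activated kinase, was mixed at 39.0, 36.7 and 44.6 CPM against 53.2 to 75.6 CPM.

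**Figure D4:**
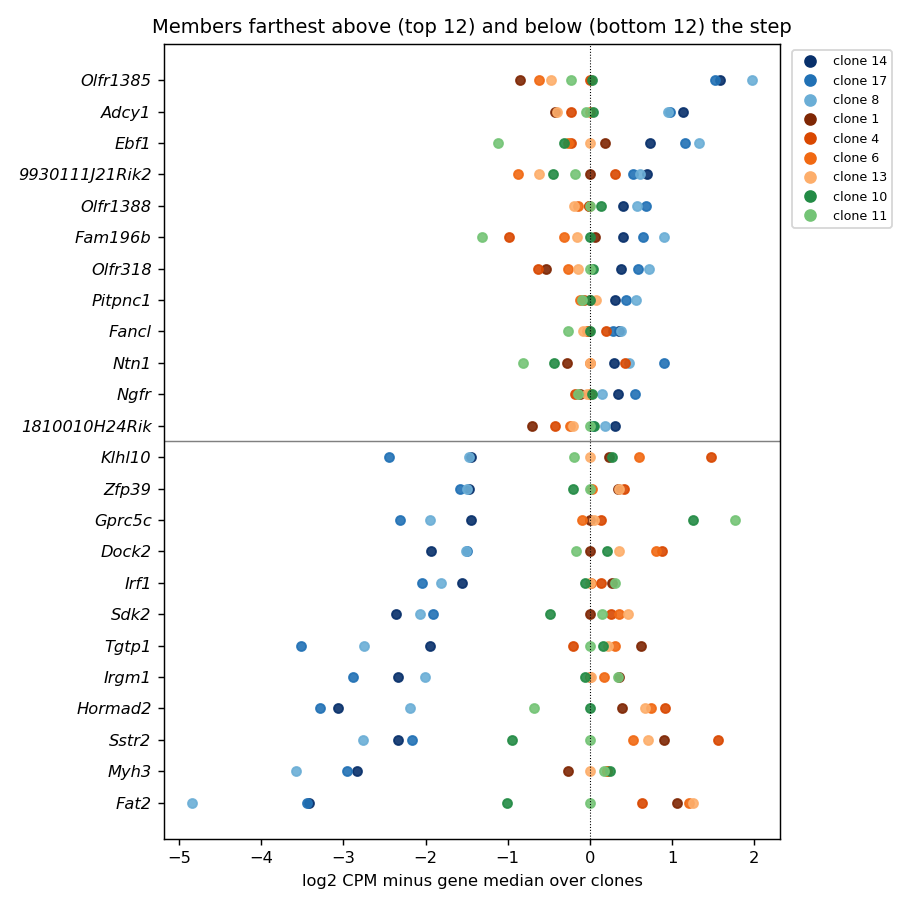
Deviation in log2 units, by clone, of the 12 genes farthest above and the 12 farthest below the step, chosen on these values. In the upper rows the points of clones 14, 17 and 8 lie right of most others; in the lower rows they lie 1.45 or more units left of the gene median, down to −4.84 for Fat2.

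Developmental transcription factors were more often mixed than in step, in a list not matched to the others for level. Of 47 listed developmental transcription factors on chromosome 11, 23 passed the level filter, and none of these was a Hoxb gene. Among the 23, 4 followed the step, 5 were above (Ebf1, Etv4, Meis1, Nr1d1 and Thra), Irf1 was below and 13 were mixed, with 7 lowest in clones 14, 17 and 8. Etv4, a target and effector of FGF signalling, was at 76.3, 106 and 76.7 CPM, inside the 57.6 to 84.5 CPM of the others but for clone 17. Thra and Nr1d1 overlap on opposite strands and are uncertain. Sox15, a relative of Sox2, was at 7.58, 6.61 and 4.71 CPM against 9.42 to 22.4 CPM and missed the below class by the value of clone 14 alone. It overlaps Mpdu1 on the opposite strand and is uncertain. Patz1, a zinc finger regulator, followed the step at 123, 107 and 107 CPM against 140 to 190 CPM.

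Of 35 growth factor and kinase signalling genes, 12 followed the step, 5 were above and 1 was below. Nf2, the tumour suppressor merlin, was at 324, 322 and 312 CPM, inside the 223 to 339 CPM of the other clones. Flcn, folliculin, was at 77.1, 76.8 and 79.3 CPM, also inside the 71.9 to 91.3 CPM of the rest. Lif, which encodes leukaemia inhibitory factor itself, was at 4.88, 4.02 and 3.28 CPM, inside the 2.13 to 5.52 CPM of the others. Ppp2ca, a catalytic subunit of protein phosphatase 2A, followed the step at 319, 318 and 340 CPM against 410 to 496 CPM. Of 9 Wnt pathway genes 5 followed the step and 4 were mixed, and 4 were lowest in the 3 clones.

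Some abundant genes of RNA processing lay inside the range of the other clones. Srsf1, a splicing factor (chr11:88047373-88053755, plus strand), measured 390, 374 and 388 CPM in clones 14, 17 and 8. Its levels were 401, 400, 375, 362, 394 and 348 CPM in clones 1, 4, 6, 13, 10 and 11, a range that holds all 3. Cdk12, a kinase of elongating RNA polymerase, was at 217, 225 and 242 CPM against 202 to 253 CPM, and Tnrc6c, of the microRNA silencing machinery, at 120, 118 and 124 CPM against 97.6 to 133 CPM. In contrast Ddx5, an RNA helicase, followed the step by a small margin at 1112, 1104 and 1106 CPM against 1154 to 1315 CPM, and H3f3b, which encodes histone H3.3, was at 411, 428 and 410 CPM against 618 to 712 CPM. Over the lists, 21 of 31 splicing genes and 18 of 33 chromatin genes followed the step, 3 and 2 were above, and 1 and 0 were below.

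Subunits of shared complexes were set against one another by chromosome, since they serve the same machine from different places in the genome. In 14 sets 29 subunits lie on chromosome 11 and 79 elsewhere. Most sets are single complexes. The enzyme MAT2 was joined with protein phosphatase 2A, SF3A with the U5 particle of the spliceosome, and the AP-2 adaptor with clathrin. Of the chromosome 11 subunits 24 were lowest in clones 14, 17 and 8, with medians of −0.38, −0.43 and −0.36. The share of lowest genes was 61.5% over all 976 chromosome 11 genes and 10.2% over genes of other chromosomes. Of the 79 other subunits 1 was lowest in clones 14, 17 and 8 (Med29, of Mediator), with medians of 0.07, 0.01 and 0.00. The 4 on chromosome 8 had medians of 0.57, 0.52 and 0.38.

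Mediator, which links transcription factors to RNA polymerase II, has the most measured subunits. All 7 of its chromosome 11 subunits that were measured were lowest in the 3 clones, with medians of −0.26, −0.47 and −0.27, and its 21 other subunits had medians of 0.00, 0.03 and 0.01. Med29 on chromosome 7 was the exception among the 21, lowest in the 3 clones at 28.6, 25.7 and 24.6 CPM against 29.0 to 38.1 CPM. Med9 measured 16.3, 14.8 and 15.7 CPM in clones 14, 17 and 8, versus 25.5 to 29.3 CPM in the rest, while Med26, on chromosome 8, which was raised in the 3 clones, was at 42.2, 39.2 and 34.0 CPM against 22.2 to 30.1 CPM. In the chromosomal passenger complex Aurkb and Birc5 were low as given above, and Cdca8 on chromosome 4 was at 97.0, 100 and 76.0 CPM, with clones 14 and 17 just over and clone 8 inside the 72.4 to 95 CPM of the other clones. In the MRN complex Mre11a on chromosome 9 was at 88.8, 89.5 and 99.7 CPM against 86.9 to 101 CPM, and Nbn on chromosome 4 at 48, 43.2 and 51.2 CPM against 36.4 to 47.7 CPM, where Rad50 was low. In the chaperonin CCT, Cct4 was at 579, 583 and 634 CPM against 750 to 900 CPM, while none of its 6 measured partners elsewhere was lowest in the 3 clones.

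Polr2a, the largest subunit of RNA polymerase II, followed neither pattern. It measured 244, 136 and 146 CPM in clones 14, 17 and 8, versus 154, 245, 284, 253, 172 and 302 CPM in clones 1, 4, 6, 13, 10 and 11. Clone 14 was thus level with clone 4, and clones 1 and 10 were nearly as low as clones 17 and 8. Suz12, a core Polycomb protein, was at 228, 227 and 254 CPM, and clone 1 at 241 CPM lay among them, while the other clones were at 290 to 402 CPM. The 5 other Polycomb subunits, on other chromosomes, had medians of 0.34, 0.19 and 0.14, over those of every other clone (at most 0.09). Ezh2, Eed and Rbbp4 were over every other clone in clones 14, 17 and 8, but the rest were not. Jarid2 was at 611, 523 and 519 CPM, inside the 392 to 616 CPM of the other clones. Rbbp7 in clones 17 and 8, at 393 and 383 CPM, lay under clone 4 at 401 CPM. Brca1 was at 195, 184 and 234 CPM against 224 to 299 CPM, with clone 8 inside the range of the rest. Prpf8, a core spliceosome protein, was at 898, 802 and 914 CPM, and its lowest clone was clone 1 at 750 CPM.

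**Figure D5:**
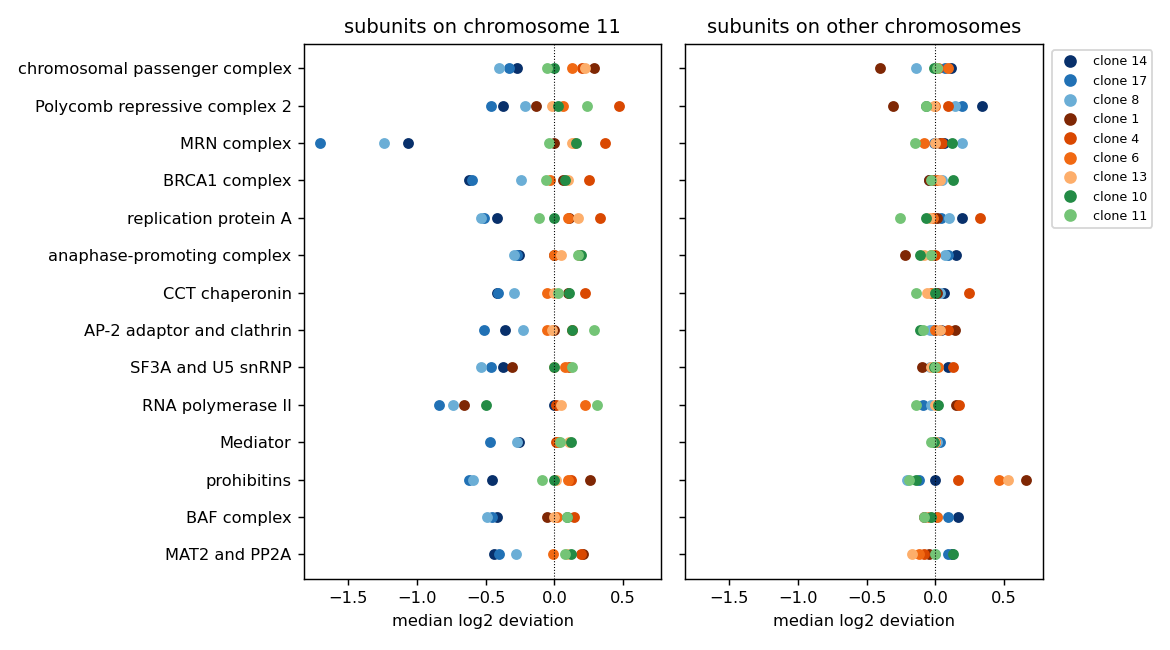
Median deviation in log2 units of the subunits of 14 complexes or joined complexes, 1 point per clone. Subunits on chromosome 11 are at left and those on other chromosomes at right. On the left clones 14, 17 and 8 lie lowest in most rows, MRN (Rad50) farthest at −1.70 in clone 17; on the right their points mix with those of the other clones in most rows, and lie over all of them for Polycomb repressive complex 2 and the anaphase-promoting complex.

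Departures in 1 clone alone were few. A gene at least 1 log2 unit from the chromosome median in exactly 1 clone and within 0.5 in every other was found 5 times (0.512%), against 0.63% of genes on other chromosomes. Chd3, a chromatin remodeller, stood at 72.2 CPM in clone 4, outside the 20.8 to 44.0 CPM found in the other 8 clones. Rai1, a transcription regulator that overlaps Srebf1, stood at 14.7 CPM in clone 4, outside the 18.1 to 35.1 CPM found elsewhere. Calcoco2, an autophagy receptor, stood at 45.3 CPM in clone 17, outside the 68.6 to 157 CPM found elsewhere, and Krt17, a keratin, at 28.5 CPM in clone 11, outside 38.0 to 97.2 CPM. Naglu, a lysosomal enzyme, was low in clone 4 at 0.610 CPM, against 0.948 to 1.53 CPM, on few counts.

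Variation among the other 6 clones is given by class as a description only. Over clones 1, 4, 6, 13, 10 and 11, 187 of 976 genes (19.2%) spanned 1 log2 unit or more, beside 21.1% of genes on other chromosomes. The share was 5.28% among genes that followed the step, 34.4% among those above, 33.3% among those below and 27.0% among the mixed. The sorting uses a median that lies among these 6 levels, so a wide range there can itself move a gene out of step, and nothing is read from these shares. Genes that followed the step had a higher median level, 64.4 CPM, than those above (20.3 CPM), below (10.2 CPM) and mixed (17.6 CPM). Scatter was wider at low levels: in clone 14 the 25th to 75th percentile of deviations spanned 0.70 for genes under 5 CPM and 0.26 for genes at 100 CPM or more.

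Several of the most variable genes separated clones 10 and 11 from the rest. Egfr, the epidermal growth factor receptor, was at 24.8 and 31.4 CPM in clones 10 and 11, over the 3.72 to 8.21 CPM of the other 7. Igfbp3, a binding protein of insulin-like growth factors, was at 146 and 179 CPM there and at 17.8 to 38.7 CPM elsewhere. Efemp1, a matrix protein, was at 5.65 and 5.17 CPM against 0.287 to 1.37 CPM. Timp2, an inhibitor of matrix proteases, was at 6.81 and 6.64 CPM against 0.575 to 1.56 CPM. The fibroblast markers Col3a1 and Col1a2 were also highest in clones 10 and 11, at 4.2 to 8.76 CPM. Lum was at 0 in both, and Thy1 at 7.39 and 7.54 CPM lay inside the 4.35 to 10.4 CPM of the other clones. The 7 fibroblast markers summed to 26.4 and 25.6 CPM in clones 10 and 11 against 7.49 to 17.3 CPM elsewhere. The 5 neural markers summed to 252 and 208 CPM against 130 to 163 CPM. Of these only Nes (nestin) was raised in both clones, at 106 and 98.7 CPM against 14.4 to 28.6 CPM. Tubb3 at 135 and 103 CPM lay inside the 96.5 to 135 CPM of the other clones. Pax6 at 10.1 and 6.57 CPM lay inside their 4.8 to 12.5 CPM. Sox1 was at 0.725 and 0.279 CPM, against 2.92 to 7.11 CPM in clones 14, 17 and 8 and 0.453 to 0.767 CPM in the remaining clones. Neurog2 was at 0 to 0.0729 CPM in every clone. The 10 stem cell markers summed to 4148 and 3858 CPM against 5402 to 6001 CPM, with Nanog, Esrrb and Dppa5a each lowest in clones 10 and 11. Tdgf1 at 315 and 342 CPM and Utf1 at 120 and 150 CPM lay inside the range of the other clones. The part of other cell types in these values was not tested. Mapt, the microtubule protein tau, split the clones another way: it was at 24.9, 18.3 and 24.7 CPM in clones 1, 6 and 13, over the 4.06 to 7.78 CPM of the other 6.

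Neighbouring genes shared a class to different degrees. Of the 398 genes that followed the step 250 (62.8%) had an adjacent gene of the same class, of the 81 below 22 (27.2%) did and of the 64 above 9 (14.1%) did. These shares rise with the size of the class, so no clustering is read from them.

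The step differed somewhat with the make-up of the transcript. Genes with under 2 kb of exonic sequence stood at −0.44, −0.49 and −0.53 in clones 14, 17 and 8, and genes with 8 kb or more at −0.28, −0.31 and −0.19. On autosomes other than 6, 8 and 11 the same bins stood at 0.00, 0.00 and −0.09, and at 0.01, 0.00 and 0.06, so clone 8 differed by length there too. By GC content, genes under 45% stood at −0.33, −0.31 and −0.21 and genes of 55% or more at −0.31, −0.35 and −0.46. The same bins elsewhere stood at 0.00, 0.01 and 0.13, and at 0.04, 0.01 and −0.11, which is a like difference in clone 8. By level the step was −0.37, −0.40 and −0.40 under 5 CPM and −0.30, −0.35 and −0.35 at 100 CPM or more. Every bin of length, GC content and level was below 0 in all 3 clones.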

How the data were processed

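RNA from 9 clones was sequenced as 1 stranded mRNA library each, and the labels put no clone in a group. Per the submitters' processing notes, CASAVA 1.8, FastQC, Trimmomatic 0.33 and kallisto 0.43.1 were used with mm10/GRCm38. The authors deposited kallisto's estimated counts and TPM (length-scaled abundance) for each transcript. The annotation release and the strand setting of the counting were not stated there.

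Transcripts were matched by Ensembl ID to GENCODE M21 (0.641% to 0.773% of counts were unmatched and left out) and estimated counts were summed to 35580 genes, unrounded. Levels are CPM with TMM factors (edgeR 4.0.16, R 4.3.3), and log2 values carry a prior count of 2. Of 13378 genes at a mean of 1 CPM or more, 12822 were protein-coding. With no groups and no replicates no test was run. Exact 95% intervals of a fold compare the counts of 2 libraries and cover counting error only. The 2 libraries are those with the highest and the lowest level of the gene, picked on these values. The intervals do not allow for that choice. 3 counts equal 0.209 to 0.293 CPM.

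The genes, functional lists and complexes were chosen with earlier results of these data known. Named are the 12 genes farthest above and below the step, the 8 most abundant that follow it, those apart in 1 clone, up to 3 of each list by level with its genes above or below, complex subunits and 9 fixed names. Genes in the accounts of single windows, families, threshold edges and variation over clones were picked after their values were seen. The classing was tested on simulated counts: deviations from a median over 9 clones came out smaller than the simulated step, and differences between clones close to it, while the classes missed most genes without the step and many with it, more so at low levels. Other scalings, filters, units, references, tolerances, windows and clones left out were tried.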

Additional observations from a re-analysis of the deposited data

How the results depend on the processing

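The step, the spread, the class counts, the share of genes lowest in clones 14, 17 and 8, and the share of low windows were recomputed. Other scalings, filters, units, references and gene sets were used, and each clone was left out. No step changed sign (that of clone 10 was 0.00 with no filter), and the other values cannot be negative. Of 400 recomputed values 372 stayed within 0.1 log2 units (steps, spreads) or within 1.5-fold (counts, shares) of the value reported, and 28 did not. These limits are wide for counts and shares. In clones 14, 17 and 8 the step stayed between −0.44 and −0.32 with any clone left out. The share of lowest genes was then 62.0% to 66.7%, beside 61.5% with all 9. Its rule is easier to meet with a clone fewer, so a rise was all but fixed in advance and does not show that the share is stable. That share was 44.5% with no filter, 55.4% on log2(TPM + 1) and 66.9% at a minimum of 5 CPM. Low windows were 76.9% of windows with no filter.

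The class counts are less fixed. With a tolerance of 0.2, 224 genes followed the step, 119 were above and 130 below. With 0.5, 727 followed it, 11 were above, 39 below and 199 mixed. At a minimum of 5 CPM 53 genes were below and 50 above. With no filter 146 were below and 780 mixed, and the spread of clones 14, 17 and 8 was 0.55, 0.58 and 0.59. With the mean over clones as reference 525 genes followed the step, 358 were mixed, 52 below and 41 above. The step was then 0.14, 0.13 and 0.16 in clones 6, 10 and 11, and the spread of clone 17 was 0.36. On log2(TPM + 1) the step was 0.01 in clone 1 and 0.15 in clone 11. With 1 clone left out, 392 to 487 genes followed the step, 38 to 120 were above, 66 to 139 below and 251 to 434 mixed. The counts with clone 14 left out (120 above, 139 below, 251 mixed) and with clone 8 left out (108 above, 267 mixed) rest on 2 low clones in place of 3, which is an easier rule. Without clone 4 or clone 13, 41 and 38 genes were above. The causes of the other shifts were not tested. Low counts limit the genes under about 5 CPM most. No paired analysis was possible because the clones carry no replicate numbers and no groups.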
